A study of Mus musculus with 24 samples.

Results

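The genes described here are 10 members of the MHC class II presentation machinery of the mouse, chosen by name: H2-Aa, H2-Ab1, H2-Eb1, H2-DMa, H2-DMb1, H2-DMb2, H2-Oa, H2-Ob, Cd74 and Ciita. They are 10 of 24421 gene symbols in the count files, and all 10 were among the 13166 genes with enough counts to be tested. RNA was sequenced from conventional dendritic cells (cDCs) that had been sorted from the spleens of untreated C57Bl/6 mice aged 6 to 12 weeks. Both subsets carry class II: cDC2 are best known for presenting antigen on it to CD4 T cells, and cDC1 for showing antigen of dying cells on class I to CD8 T cells. In the deletion line (CD11cCRExZeb2fl/fl), Cre recombinase driven by CD11c regulatory sequences deletes floxed Zeb2, the gene of a zinc-finger transcription factor. In the transgene line (CD11cCRExR26-Zeb2Tg/Tg), the same driver turns on Zeb2 from the Rosa26 locus. The Cre-negative libraries, from Zeb2fl/fl or R26-Zeb2Tg/Tg mice, are the controls, so controls carry the floxed or silent allele without Cre. Within a line, the presence of Cre and the change of Zeb2 therefore come together and cannot be told apart. CD11c is carried by other myeloid and lymphoid cells as well as cDCs, so the driver is not limited to 1 subset. The 8 groups of subset, line and Cre held 2 libraries for each control group and 4 for each Cre-positive group. The labels number the libraries but do not say that each came from a separate mouse, so the spread behind each p-value is that of these libraries and may be technical.

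MHC class II molecules are pairs of an alpha and a beta chain that display peptides from endosomes to CD4 T cells. In the mouse these are I-A, encoded by H2-Aa and H2-Ab1, and I-E, whose beta chain is encoded by H2-Eb1. The gene annotation lists the alpha chain gene of I-E as H2-Ea-ps, a pseudogene. H2-Eb1 transcript therefore does not show that these cells make I-E, and protein was not measured here. The invariant chain, encoded by Cd74, occupies the groove of new class II molecules and guides them to endosomes. There H2-DM, a pair of an H2-DMa chain and an H2-DMb chain, removes the invariant chain remnant and helps exchange peptides. H2-O, the pair of H2-Oa and H2-Ob, binds H2-DM and restrains it, and is best known from B cells, thymic epithelium and some dendritic cells. Ciita encodes the coactivator that switches on class II genes through the factors RFX, CREB and NF-Y, which sit on the X and Y boxes of their promoters.

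The promoter stretches below are shown because these boxes are what the class II genes are known to have in common. RefSeq promoters on GRCm38.p6, the assembly of mm10, were read for 7 members: H2-Oa, H2-DMa (with 2 start sites), H2-DMb1, H2-DMb2, H2-Ob, H2-Aa and H2-Eb1. H2-Ab1 and Ciita had no entry, and the promoter and position of Cd74 were not analysed here. In each line but that of H2-DMb1, the capitals ATTGG mark a match to the core letters of the Y box, which NF-Y recognises. The capitals in H2-DMb1 mark the only match to the X box, which RFX recognises, searched with some positions left free. For H2-DMb1, whose full stretch overlaps an annotated exon, only a stretch starting at that match is printed. The H2-Oa stretch is chr17:34092291-34092350, that of H2-Ob chr17:34238803-34238862, that of H2-DMb2 chr17:34145114-34145173, that of H2-DMb1 chr17:34153093-34153122 and that of H2-Eb1 chr17:34305763-34305822, all on the plus strand. That of H2-Aa is chr17:34287857-34287916 on the minus strand. All are written 5′ to 3′ along their gene.
H2-Oa: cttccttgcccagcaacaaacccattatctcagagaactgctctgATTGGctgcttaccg
H2-Ob: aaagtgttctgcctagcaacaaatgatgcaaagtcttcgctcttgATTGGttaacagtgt
H2-DMb2: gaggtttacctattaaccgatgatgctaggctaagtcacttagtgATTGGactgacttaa
H2-DMb1: CCTAGTAACTGATGatgctaggctgattca
H2-Aa: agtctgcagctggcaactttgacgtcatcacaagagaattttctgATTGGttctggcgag
H2-Eb1: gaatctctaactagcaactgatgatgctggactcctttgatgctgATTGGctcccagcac

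Both strands of the 300 bases around each RefSeq start (250 before, 50 after) were searched. The core ATTGG lay at -43 from the RefSeq start in H2-Oa, -57 in H2-Ob, -90 in H2-DMb2, -61 in H2-DMb1, -48 in H2-Aa and -59 in H2-Eb1. GENCODE vM21 places some starts elsewhere. The H2-DMb2 and H2-DMb1 stretches lie inside its genes, which begin at 34143307 and 34153072. That of H2-Oa runs past its GENCODE start, 34092340. H2-Eb1 also held it at -35 on the opposite strand, and the second H2-DMa start held it at -198. It occurs in 37.4% of 32851 promoters of this length, so its presence alone is common. The longer form CTGATTGG, which contains the core, was found in H2-Oa, H2-Aa and H2-Eb1 and in 4.1% of all promoters. The X box form searched was found in H2-DMb1 at -98 and in 0.0609% of all promoters, or 20 of them. A promoter without that form may still hold an X box with other letters. The letters CACCTG, a form of the E-box known to be bound by ZEB factors, were found only at the second H2-DMa start, at -56, and occur in 20.2% of all promoters. A match is a description of letters and does not show that a factor binds there.

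By position (mm10, GENCODE vM21), 8 of the members lie on chromosome 17 within the H2 complex, in the order H2-Oa (34092340 to 34095234), H2-DMa (34119541 to 34139101), H2-DMb2 (34143307 to 34151555), H2-DMb1 (34153072 to 34160230), H2-Ob (34238903 to 34254414), H2-Ab1 (34257689 to 34269419), H2-Aa (34282744 to 34287823) and H2-Eb1 (34305867 to 34316674). H2-Aa is on the minus strand and the others are on the plus strand. Ciita lies on chromosome 16 (10480059 to 10528418, plus strand). H2-Oa shares 22.8% of its exon bases with BC051537, H2-DMa 10.4% with Brd2 and Ciita 3.45% with Dexi, each on the opposite strand. Amplification used SMART-Seq v4, which does not mark strand, so reads of those stretches cannot be assigned to a strand. Which program counted the reads, and whether it used strand, is not given in the sources used here.

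Library totals ran from 21972763 to 36094786 counts, and the 10 genes together took 6.75 to 8.93% of each library's counts (median 7.95%), of which Cd74 alone took 3.21 to 4.19%. Zeb2 followed the labels wherever it was expressed. In cDC1 of the transgene line it was 3.26 and 2.36 CPM (library-scaled counts, TMM) in controls and 41.4 to 46.3 CPM with Cre. In cDC2 of the transgene line it was 104.0 and 103.6 CPM in controls and 147.7 to 159.0 CPM with Cre, and in cDC2 of the deletion line it was 176.4 and 132.4 CPM in controls and 30.7 to 41.4 CPM with Cre. In cDC1 of the deletion line Zeb2 was at or below 2.67 CPM with and without Cre. The 10 cDC1 markers summed to 6149 to 10840 CPM in cDC1 libraries and to 685.3 to 1207 CPM in cDC2 libraries. The 10 cDC2 markers summed to 206.9 to 487.3 CPM in cDC1 and to 2434 to 3434 CPM in cDC2, and none of the 20 was at 0 in a group.

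How the members compare with each other was read per length, as CPM per kb of exon, in the control libraries. Cd74 stood highest in both subsets, at 22860 ± 3369 CPM per kb in cDC1 (SD, n = 4) and 21280 ± 1813 in cDC2. The classical chains followed in the same order in both: H2-Ab1 at 8343 ± 987.1 and 6545 ± 246.0, H2-Eb1 at 4464 ± 506.2 and 4584 ± 153.8, and H2-Aa at 3323 ± 301.4 and 3160 ± 60.3 CPM per kb in cDC1 and cDC2. The editors and their inhibitor were an order of magnitude lower. In cDC1 they ranked H2-DMb1 (372.6 ± 35.5), H2-DMa (278.3 ± 25.9), H2-Oa (234.3 ± 24.7), H2-Ob (62.5 ± 4.17) and H2-DMb2 (41.4 ± 4.08 CPM per kb). In cDC2 they ranked H2-Oa (381.6 ± 18.9), H2-DMb2 (249.4 ± 4.58), H2-DMa (235.5 ± 6.16), H2-DMb1 (183.8 ± 11) and H2-Ob (68.5 ± 8.02 CPM per kb). These ranks depend on the length used, here the union of exons. By the longest transcript, H2-DMa stood above H2-DMb1 in cDC1 (478.7 and 446.1) and above H2-Oa in cDC2 (405 and 400.7). H2-Ob was then 126 in cDC1 and 137.9 in cDC2. Ciita, whose product acts on the other genes, was at 48.1 ± 6.45 CPM per kb in cDC1 and 54.3 ± 5.23 in cDC2.

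**Figure D1:**
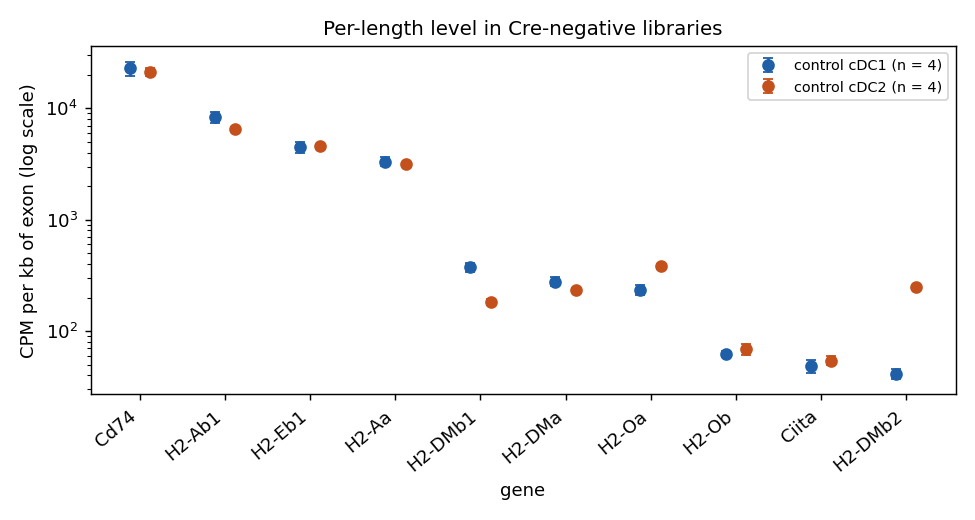
Mean CPM per kb of exon (log axis) of the 10 genes in the 4 control libraries of each subset, with bars for the SD. Cd74 and the classical chains lie close together in both subsets, while H2-DMb2 is at 41.4 in cDC1 and 249.4 in cDC2, and H2-DMb1 at 372.6 in cDC1 and 183.8 in cDC2.

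The first comparison asks how the subsets differ without Cre. In control cDC2 against control cDC1, 53.4% of all tested genes passed the test (edgeR's quasi-likelihood test, Benjamini-Hochberg adjusted p under 0.05), with 27.6% higher and 25.8% lower. Of the 10 members, 2 were higher in cDC2 (H2-DMb2 and H2-Oa) and 3 lower (H2-DMb1, H2-Ab1 and H2-DMa), a share close to that background. Their median log2 fold change was -0.02, against 0.05 over all genes tested. H2-Aa, H2-Eb1, H2-Ob, Cd74 and Ciita did not pass.

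The largest differences between the subsets lay in the 2 beta chain genes of H2-DM, H2-DMb1 and H2-DMb2, which are neighbours on chromosome 17 and close copies of each other. H2-DMb2 in cDC1 controls was 63.1 and 80.2 CPM (deletion line) and 74.5 and 71.5 CPM (transgene line). In the cDC2 controls it was 426.4 and 432.4 CPM in the deletion line and 444.8 and 439.0 CPM in the transgene line. The lowest cDC2 library thus lay far above the highest cDC1 library. The mean was 435.6 ± 8.0 CPM in cDC2 and 72.4 ± 7.13 CPM in cDC1 (SD, n = 4 each), a 6.02-fold difference (log2 fold change 2.59, SE 0.10, edgeR adjusted p = 6.3e-16).

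H2-DMb1 went the other way. In cDC1 controls it was 540.0 and 635.9 CPM (deletion line) and 673.7 and 655.9 CPM (transgene line). In cDC2 the values were 328.8 and 306.8 CPM for the deletion line and 315.5 and 284.7 CPM for the transgene line, all below every cDC1 library. The mean was 2.02-fold lower in cDC2 (log2 fold change -1.02, SE 0.08, edgeR adjusted p = 2.32e-10). The sum of both genes was similar in the subsets: 660 ± 79.9 and 738 ± 14.7 CPM in the control cDC1 groups of the deletion and transgene line, and 747 ± 11.3 and 742 ± 25.8 CPM in the control cDC2 groups (SD, n = 2 each). Per length, H2-DMb2 made up 9.5 to 10.8% of the 2 transcripts in control cDC1 and 55.5 to 59.7% in control cDC2.

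**Figure D2:**
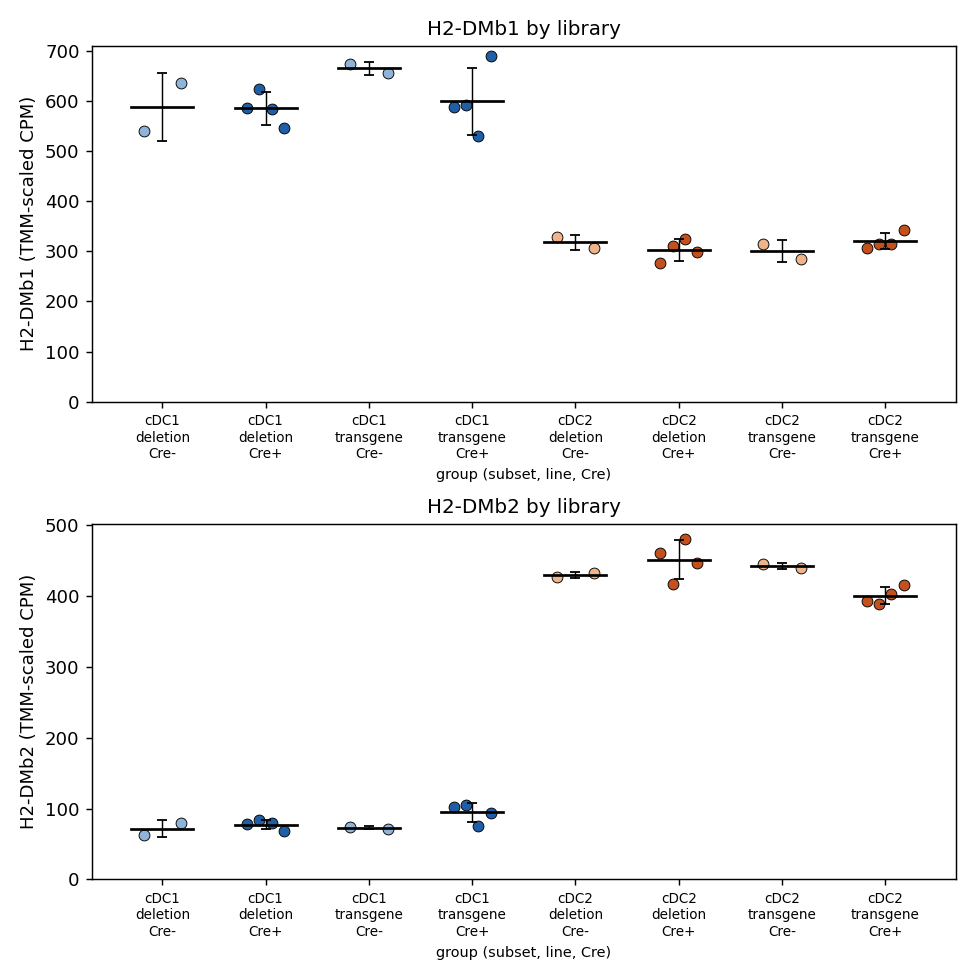
TMM-scaled CPM of H2-DMb1 (top) and H2-DMb2 (bottom) in each of the 24 libraries, by subset, line and Cre, with the group mean as a bar and the SD as an error bar. All cDC1 libraries are above all cDC2 libraries for H2-DMb1 and below them for H2-DMb2, with or without Cre.

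The 2 copies can exchange reads, so each value is uncertain to some degree. A transcript of H2-DMb1 (1404 bases) and a transcript of H2-DMb2 (1424 bases) were 94.4% identical over 1255 aligned bases, with a longest identical run of 221 bases. Of their 75-base windows, 19.1% for H2-DMb1 and 18.8% for H2-DMb2 occurred in the other transcript. The longest H2-DMb2 transcript (1483 bases) had 20% of its windows in transcripts of other genes, H2-DMb1 and others. Every file lists 0 reads as not uniquely aligned, and how such reads were treated is not given. For H2-Oa, 13.6% of windows occurred in BC051537. H2-Aa, H2-Ab1, H2-Eb1, H2-DMa, H2-Ob, Cd74 and Ciita had no window in another gene's transcripts.

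H2-Oa, the alpha chain of H2-O, was 290.0 and 361.3 CPM (deletion line) and 311.2 and 356.4 CPM (transgene line) in control cDC1. In control cDC2 it was 550.3 and 499.3 CPM and 538.1 and 559.9 CPM in the same lines. The groups did not overlap, and the mean was 1.63-fold higher in cDC2 (log2 fold change 0.70, SE 0.08, edgeR adjusted p = 4.52e-08). Its partner H2-Ob was 322.3, 369.8, 326.9 and 326.1 CPM in control cDC1 and 315.7, 358.3, 380.0 and 419.2 CPM in control cDC2. Those values overlapped and the difference did not pass (log2 fold change 0.13, SE 0.07, edgeR adjusted p = 0.132). The 2 chains of H2-O therefore stood at different proportions: H2-Ob was below H2-Oa by 1.84 and 1.96 on the log2 per-length scale in the control cDC1 groups (means -1.84 and -1.96) and by 2.58 and 2.40 in the control cDC2 groups (means -2.58 and -2.40). The size of that gap depends on the length used. By the longest transcript it was smaller, with H2-Oa at 246.1 and H2-Ob at 126 CPM per kb in control cDC1.

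Among the chains of the classical molecules, H2-Ab1 was lower in cDC2 (16810 ± 631.7 against 21430 ± 2535 CPM, log2 fold change -0.35, SE 0.08, edgeR adjusted p = 0.000632). H2-DMa was lower in cDC2 by a small amount (812.0 ± 21.2 against 959.7 ± 89.3 CPM, log2 fold change -0.24, SE 0.07, edgeR adjusted p = 0.00512), with overlapping libraries, and was at 0.0506 without replicate 2 of the deletion line's cDC1 controls. H2-Aa (log2 fold change -0.07), H2-Eb1 (0.04), Cd74 (-0.10) and Ciita (0.18, SE 0.09, edgeR adjusted p = 0.0977) did not pass. No member passed the test between the controls of the transgene line and those of the deletion line, where 0.129% of all genes passed in cDC1 and 0.137% in cDC2. At an unadjusted p under 0.05, H2-Ab1 was higher in the transgene line's cDC1 controls (log2 fold change 0.24) and H2-Ob in its cDC2 controls (0.25).

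The other genes of the class II pathway were read from a list of 30 (proteases, their inhibitor, transcription factors and ubiquitin ligases, plus H2-Eb2 and 2 I-E alpha entries), of which 28 were tested. Between the control subsets 15 of the 28 were higher in cDC2 and 4 lower, with a median log2 fold change of 0.29. Over all genes tested, 27.6% were higher and 25.8% lower, with a median of 0.05. Proteases that cut antigen and the invariant chain were among the higher: Ctss, the gene of cathepsin S, was 1460 against 630.8 CPM (2.31-fold, edgeR adjusted p = 6.56e-13), and Ctsd, encoding cathepsin D, was 125.4 against 29.1 CPM (4.33-fold, edgeR adjusted p = 1.28e-10). Cst3, the gene of the protease inhibitor cystatin C, was 912.1 CPM in cDC2 and 17810 CPM in cDC1, 19.5-fold lower in cDC2 (edgeR adjusted p = 1.16e-20). Irf8, a factor needed for cDC1, was 42.7-fold lower in cDC2 and Irf4, a factor of cDC2, 30.1-fold higher (edgeR adjusted p = 6.83e-17 and 3.74e-11). H2-Eb2, a relative of H2-Eb1, was 134.5 CPM in cDC2 and 13.97 CPM in cDC1 (9.55-fold, edgeR adjusted p = 1.19e-10).

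The second comparison is of cDC1 with and without Cre in the transgene line, where Cre turns on Zeb2, normally low in cDC1. In cDC1 of the transgene line 7.00% of all tested genes passed (3.58% higher, 3.42% lower). Of the members, 3 of 10 passed, all lower with Cre: both chains of H2-O and the alpha chain of H2-DM. The median over the 10 was -0.19 on the log2 scale, against 0.02 over all genes.

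H2-Ob showed the largest response of any member in any Cre comparison. It was 326.9 and 326.1 CPM in the 2 controls and 187.0, 203.5, 189.3 and 192.7 CPM in the 4 Cre-positive libraries. The highest Cre-positive library lay well below both controls. The mean was 326.5 ± 0.57 CPM (SD, n = 2) without Cre and 193.1 ± 7.30 CPM (SD, n = 4) with it, a fall of 1.69-fold (log2 fold change -0.76, SE 0.08, edgeR adjusted p = 1.99e-06).

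H2-Oa was 311.2 and 356.4 CPM in the controls and 262.0, 275.2, 219.8 and 256.5 CPM with Cre. All 4 Cre-positive libraries were below both controls. The fold was smaller than for H2-Ob (1.32-fold, log2 fold change -0.40, SE 0.09, edgeR adjusted p = 0.0078). The call rested on the controls: without control replicate 2 the adjusted p was 0.219, and in a fit of these 6 libraries alone it was 0.0885.

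H2-DMa was 993.8 and 1043 CPM in the controls and 816.3, 888.9, 702.3 and 840.4 CPM with Cre, again without overlap (log2 fold change -0.33, SE 0.08, edgeR adjusted p = 0.0151). That call was lost without either control (adjusted p = 0.0744 and 0.186 without replicate 1 and 2) and in a fit of these libraries alone (0.149). The other H2-DM genes differed in sign: H2-DMb1 was 599.1 ± 66.2 against 664.8 ± 12.6 CPM (log2 fold change -0.15, edgeR adjusted p = 0.422), and H2-DMb2 was 94.5 ± 13.3 against 73.0 ± 2.13 CPM (log2 fold change 0.37, SE 0.11, edgeR adjusted p = 0.0523). H2-DMb2 was 102.5, 105.4, 75.9 and 94.1 CPM with Cre and 74.5 and 71.5 CPM without. These groups did not overlap, but the test was missed. The share of all genes without overlap was not counted, so separation is only a description of these libraries. Its share of the 2 beta chain transcripts per length was 11.6 to 14.6% with Cre and 9.5 to 9.62% without, far from the share of cDC2.

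The peptide-binding chains, the invariant chain and the coactivator did not pass in cDC1 of the transgene line. H2-Ab1 was 19360 ± 2459 against 23190 ± 1799 CPM (log2 fold change -0.26, SE 0.09, edgeR adjusted p = 0.102), H2-Aa had a log2 fold change of -0.19 (SE 0.08), H2-Eb1 of -0.16 (SE 0.09) and Cd74 of -0.18 (SE 0.10). H2-Aa did not overlap either, at 9861 to 12370 CPM with Cre and 12520 and 13940 CPM without. Ciita was 477.1, 449.8, 436.7 and 488.9 CPM with Cre, inside the range of its controls (413.8 and 541.0 CPM; log2 fold change -0.04, SE 0.11, edgeR adjusted p = 0.881).

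**Figure D3:**
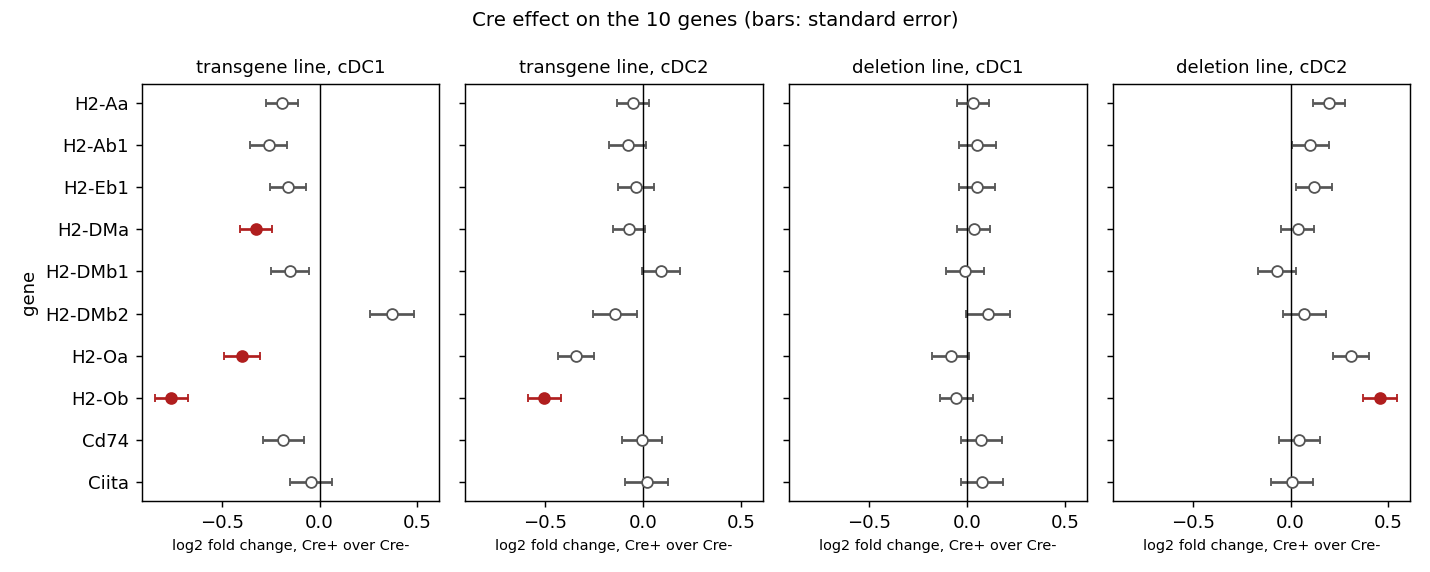
Log2 fold change of each of the 10 genes, Cre-positive over Cre-negative, in the 4 combinations of line and subset, with the standard error as a bar; filled red points passed edgeR's test over all genes, open points did not. H2-Ob is lower in both subsets of the transgene line (-0.76 and -0.51) and higher in cDC2 of the deletion line (0.46), while Ciita lies between -0.04 and 0.08 throughout.

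Of the 28 other pathway genes, 5 rose and 2 fell in cDC1 of the transgene line, with a median of 0.07. Over all genes tested, 3.58% rose and 3.42% fell. The proteases Lgmn, encoding legumain, Ctss and Ctsh rose: Lgmn was 82.4 against 33.1 CPM (2.49-fold, edgeR adjusted p = 0.000133), Ctss 843.3 against 626.6 CPM (1.35-fold, 0.00191) and Ctsh 509.2 against 371.3 CPM (1.37-fold, 0.015). Prdm1, which encodes a repressor that is known to act on Ciita, was 0.24 and 0.98 CPM in controls and 17.4, 18.8, 14.2 and 7.13 CPM with Cre (edgeR adjusted p = 2.08e-05), while Ciita itself did not pass. Cst3 fell from 18150 and 20550 CPM to 9741, 11210, 9990 and 11810 CPM (1.81-fold, edgeR adjusted p = 8.05e-07), and Irf8 fell 1.74-fold (edgeR adjusted p = 0.00537). In the same cells 5 of 10 cDC1 markers fell, their sum being 9002 to 10840 CPM in controls and 6149 to 8217 CPM with Cre, and 6 of 10 cDC2 markers rose, their sum being 206.9 to 215.8 CPM in controls and 277.2 to 487.3 CPM with Cre.

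In bulk libraries a lower level in every cell and a smaller share of expressing cells cannot be told apart. Markers of maturation, a state in which class II transcription is known to be shut down, were also lower in the Cre-positive cDC1: the 10 genes summed to 768.6 to 1157 CPM against 1619 to 1811 CPM in controls, 4 of 10 (Ccr7, Fscn1, Ccl22 and Cd200) passed as lower, and none was at 0. B cell markers, of interest because B cells carry H2-O, summed to 11.6 to 25.1 CPM with Cre and 33.4 to 51.4 CPM without, with 1 of 9 tested (Ms4a1) lower and none of the 10 at 0 across either group. Monocyte and macrophage markers summed to 445.6 to 571.7 CPM with Cre and 313.4 to 343.8 CPM without, with 3 of 8 (Csf1r, Adgre1 and Spic) higher. Those of plasmacytoid dendritic cells summed to 68.5 to 84.4 CPM with Cre and 107.0 to 109.5 CPM without, with 2 of 8 (Ccr9 and Pacsin1) lower. None of these 16 was at 0 across either group. The part of these lists in the H2-O values was not tested.

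In cDC2 of the transgene line, where Zeb2 rose from an already high level, 0.327% of all genes passed (0.213% lower) and 1 of 10 members did. That member was again H2-Ob. It was 380.0 and 419.2 CPM in controls and 279.6, 272.0, 297.8 and 275.7 CPM with Cre. The groups did not overlap, and the mean fell 1.42-fold, from 399.6 ± 27.7 to 281.3 ± 11.4 CPM (log2 fold change -0.51, SE 0.08, edgeR adjusted p = 0.00342). Without control replicate 2 the log2 fold change was -0.43 and the adjusted p 0.166. H2-Oa was 538.1 and 559.9 CPM in controls and 413.1, 416.0, 448.5 and 451.6 CPM with Cre. These did not overlap either, but the test over all genes was not passed (log2 fold change -0.34, SE 0.09, edgeR adjusted p = 0.129). H2-Aa, H2-DMa and H2-DMb2 did not overlap here either, at log2 fold changes of -0.05, -0.07 and -0.14. How many of all genes showed no overlap was not counted for any comparison.

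The other 8 members in cDC2 of the transgene line had log2 fold changes between -0.14 (H2-DMb2) and 0.09 (H2-DMb1). H2-DMa was 802.6 and 807.1 CPM in controls and 751.8 to 783.3 CPM with Cre (log2 fold change -0.07). None of the 28 other pathway genes passed. B cell markers summed to 101.0 and 101.1 CPM in controls and to 58.1 to 122.8 CPM with Cre, with 0 of 9 tested passing and Pax5 at 0 in both controls. Their part in the H2-Ob value was not tested.

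Whether a member changed differently with Cre in the 2 subsets of the transgene line was tested as the difference of the Cre effects. It passed for 2.01% of all genes and for no member. At an unadjusted p under 0.05 there were 3 members: H2-DMb2 (cDC2 minus cDC1 -0.52, SE 0.16, edgeR adjusted p = 0.102), H2-DMa (0.25, SE 0.12, adjusted p = 0.358) and H2-Ob (0.25, SE 0.12, adjusted p = 0.381). The fall of H2-Ob was thus not shown to differ between the subsets. Of the 28 other pathway genes 4 differed: Cst3 (cDC2 minus cDC1 0.84), Irf8 (1.5), Lgmn (-1.14) and Prdm1 (-3.75), with edgeR adjusted p = 0.000535, 0.00145, 0.0239 and 0.00387. Cst3 and Irf8 fell in cDC1, while their log2 fold changes in cDC2 were -0.02 and 0.70 and did not pass. Lgmn and Prdm1 rose in cDC1, while theirs in cDC2 were 0.18 and 0.86 and did not pass.

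In cDC2 of the deletion line, where Zeb2 transcript was reduced, 5.21% of all genes passed (2.33% higher, 2.88% lower) and 1 of 10 members did, H2-Ob, now higher. It was 315.7 and 358.3 CPM in controls and 462.1, 421.4, 486.4 and 480.9 CPM with Cre. Every Cre-positive library was above both controls, and the mean was 1.37-fold higher, 462.7 ± 29.5 against 337.0 ± 30.1 CPM (log2 fold change 0.46, SE 0.09, edgeR adjusted p = 0.00241). Without control replicate 1 the log2 fold change was 0.37 and the adjusted p 0.12.

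H2-Oa was 550.3 and 499.3 CPM in these controls and 663.0, 644.4, 667.2 and 626.7 CPM with Cre. The groups did not overlap, and the difference just missed the threshold in edgeR (log2 fold change 0.31, SE 0.09, adjusted p = 0.0586) and passed in DESeq2 (adjusted p = 0.0253). H2-Aa was 11760 and 11860 CPM in controls and 13510, 12980, 13910 and 13670 CPM with Cre (log2 fold change 0.19, SE 0.08, edgeR adjusted p = 0.2). The remaining members had log2 fold changes between -0.07 (H2-DMb1) and 0.12 (H2-Eb1), with Ciita at 0.01 (SE 0.11). H2-Aa and H2-Eb1 did not overlap either, H2-Eb1 being 8848 and 9276 CPM in controls and 9703 to 10020 CPM with Cre. The median over the 10 was 0.09, against 0.01 over all genes. Of the 28 other pathway genes 1 passed, Cst3, where 5.21% of all genes did. Cst3 rose from 809.9 and 937.1 CPM to 2135, 2058, 2013 and 1985 CPM (2.34-fold, edgeR adjusted p = 2.12e-08).

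**Figure D4:**
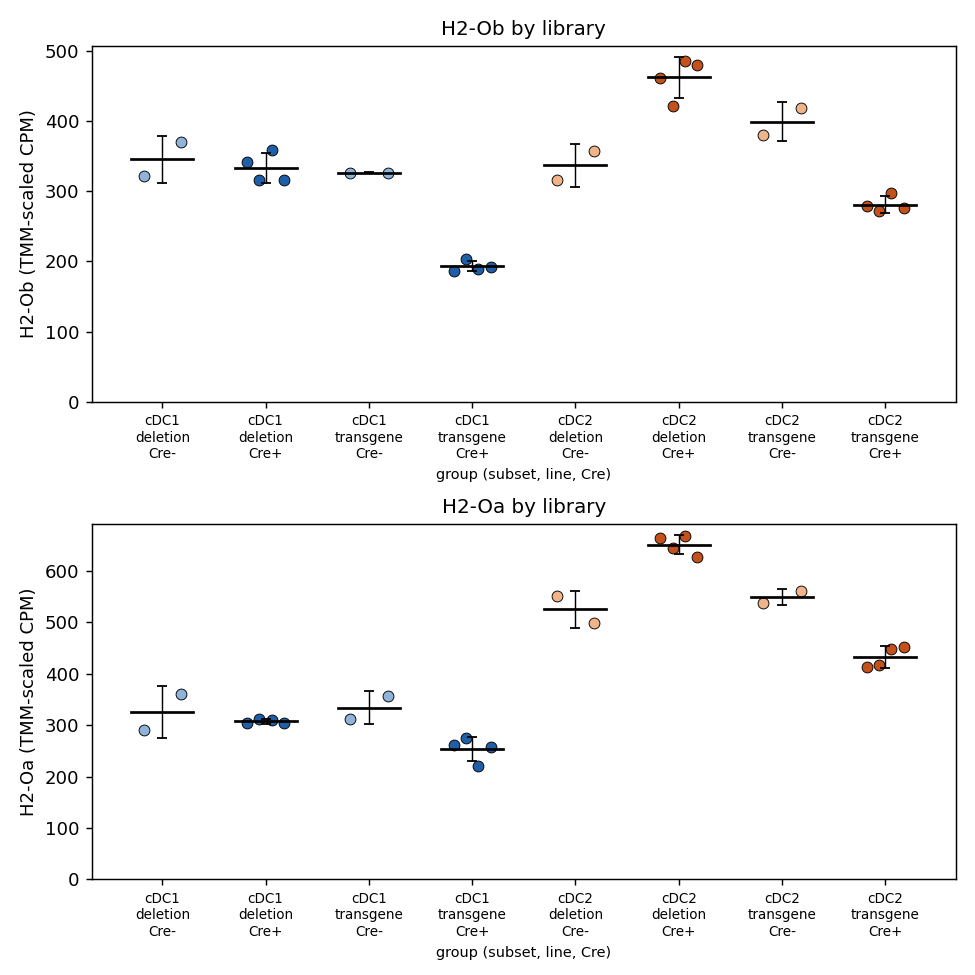
TMM-scaled CPM of H2-Ob (top) and H2-Oa (bottom) in each of the 24 libraries, by subset, line and Cre, with the group mean as a bar and the SD as an error bar. Cre-positive libraries lie below their controls in both subsets of the transgene line and above them in cDC2 of the deletion line, while in cDC1 of the deletion line they overlap.

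B cell markers summed higher in the same Cre-positive cDC2 of the deletion line: the 10 genes summed to 70.7 and 90.0 CPM in controls and to 243.4 to 301.3 CPM with Cre, and 2 of 9 tested were higher. Those 2 were Ms4a1, encoding CD20, at 12.1 and 22.5 CPM in controls and 163.5, 174.6, 193.4 and 211.6 CPM with Cre, and Fcer2a, encoding CD23, at 4.44 and 4.69 CPM in controls and 25.2 to 40.5 CPM with Cre. The 9 tested had a median log2 fold change of 1.11 and ranged from -0.51 (Cd79b) to 3.43 (Ms4a1). Of those that did not pass, Blk had a mean of 17.9 CPM with Cre and 8.32 CPM in controls and Cd79b of 28.4 and 40.6 CPM, without overlap between the groups. Cd79a and Pax5 are examples of B cell genes at low levels that overlapped between the groups: Cd79a was 3.43 and 6.46 CPM in controls and 0.59 to 7.62 CPM with Cre, and Pax5 was at 0 in 1 control and in 2 of the Cre-positive libraries and at most 0.31 CPM. Markers of maturation summed to 2321 to 4583 CPM with Cre and 2661 to 2725 CPM without, with 1 of 10 (Ccl22) higher and none at 0.

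Single genes of 4 other marker lists also passed in these cells. Monocyte and macrophage markers were lower in sum, at 1413 to 1696 CPM with Cre and 3124 to 3828 CPM without, and 2 of 8 (Csf1r and Lyz2) passed as lower. Of the cDC2 markers 2 of 10 (Cx3cr1 and Clec12a) were lower, the sum being 2434 to 2669 CPM with Cre and 2703 to 2944 CPM without. Of the cDC1 markers 3 of 10 (Clec9a, Cadm1 and Cd36) were lower and Tlr3 was higher, the sum being 957.1 to 1207 CPM with Cre and 894.7 to 1026 CPM without. Plasmacytoid dendritic cell markers summed to 104.7 to 117.6 CPM with Cre and 103.9 to 108.7 CPM without, with 1 of 8 (Cox6a2) higher. No marker of these 4 lists was at 0 across either group. Their part in the H2-Ob value, and that of the B cell and maturation markers, was not tested.

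Where Zeb2 was near 0 with and without Cre, in cDC1 of the deletion line, 0.0228% of all genes passed and none of the 10 members or of the 28 other pathway genes did, in edgeR or in DESeq2. No member had an unadjusted p under 0.05 in edgeR. H2-Ob was 322.3 and 369.8 CPM in controls and 341.9, 315.8, 359.1 and 316.1 CPM with Cre. H2-Oa was 290.0 and 361.3 CPM in controls and 303.5, 311.7, 310.7 and 303.3 CPM with Cre. For both genes the Cre-positive libraries overlapped the controls. Over the 10 members the log2 fold changes lay between -0.08 (H2-Oa) and 0.11 (H2-DMb2), with SEs of 0.08 to 0.11.

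Tested directly, the Cre effect on H2-Ob in the deletion line differed between the subsets (cDC2 minus cDC1 0.51, SE 0.12, edgeR adjusted p = 0.0402), in a comparison that 1.08% of all genes passed. It was the only member of the 10 to pass. The call was fragile: it was lost without the low-count filter (adjusted p = 0.0759), in a fit of the 12 libraries of this line alone (0.129) and in 8 of 12 fits that each left out 1 library, with adjusted p-values up to 0.32 (without replicate 1 of the cDC2 controls). H2-Oa had a difference of 0.39 (SE 0.13, adjusted p = 0.17). Among the other pathway genes only Cst3 passed (1.16, adjusted p = 1.38e-05).

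Over the 8 groups, the order of H2-Ob was cDC2 with the deletion (462.7 ± 29.5 CPM), cDC2 controls of the transgene line (399.6 ± 27.7), cDC1 controls of the deletion line (346.1 ± 33.6), cDC2 controls of the deletion line (337.0 ± 30.1), cDC1 with the deletion (333.2 ± 21.1), cDC1 controls of the transgene line (326.5 ± 0.57), cDC2 with the transgene (281.3 ± 11.4) and cDC1 with the transgene (193.1 ± 7.30 CPM, SD, n = 2 for controls and 4 with Cre). The middle groups, from the third to the sixth, overlapped their neighbours in that order, and the groups at both ends did not. For H2-Oa the 4 cDC2 groups came first, from 650.3 ± 18.6 CPM with the deletion to 432.3 ± 20.6 CPM with the transgene, and the 4 cDC1 groups followed, down to 253.4 ± 23.7 CPM with the transgene. The highest and lowest group means were 2.4-fold apart for H2-Ob and 2.57-fold for H2-Oa. They were 6.29-fold apart for H2-DMb2 and 2.22-fold for H2-DMb1, where the subsets separated them, and 1.48-fold or less for the other 6: H2-Ab1 (1.48-fold), H2-DMa (1.33-fold), H2-Eb1 and Ciita (1.22-fold) and H2-Aa and Cd74 (1.17-fold).

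H2-O was then set against H2-DM within each library, as the ratio of the geometric mean of H2-Oa and H2-Ob to that of H2-DMa, H2-DMb1 and H2-DMb2, all per length. The ratio is a description over named genes and carries no test. In cDC1 of the transgene line it was 0.68 and 0.73 in controls and 0.48, 0.49, 0.53 and 0.46 with Cre. In cDC2 of the transgene line it was 0.74 and 0.82 in controls and 0.59, 0.58, 0.63 and 0.58 with Cre. In both subsets every Cre-positive library was below both controls, by 0.54 and 0.38 on the log2 scale (log2 differences -0.54 and -0.38).

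In cDC2 of the deletion line the ratio moved the other way, from 0.67 and 0.70 in controls to 0.92, 0.87, 0.87 and 0.89 with Cre (log2 difference 0.37), again without overlap. For cDC1 of the deletion line it was 0.79 and 0.78 in controls and 0.73, 0.67, 0.76 and 0.76 with Cre. Those 6 libraries did not overlap, but the log2 difference of -0.11 was close to the spread between libraries, whose pooled SD within groups was 0.07. The other 3 Cre differences were at least 5 times as large as that SD.

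**Figure D5:**
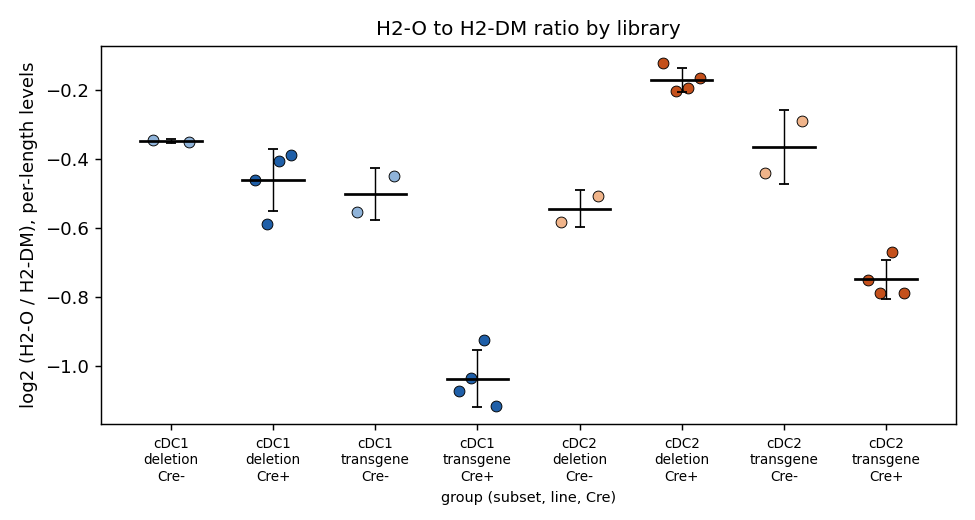
Log2 ratio of H2-O (H2-Oa and H2-Ob) to H2-DM (H2-DMa, H2-DMb1 and H2-DMb2), geometric means of per-length levels, in each of the 24 libraries by subset, line and Cre, with the group mean as a bar and the SD as an error bar. The 4 cDC1 libraries with the transgene lie lowest, between -1.12 and -0.92, and the 4 cDC2 libraries with the deletion highest, between -0.20 and -0.12.

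The 4 Cre differences kept their direction however H2-DM was summarised (sums, the beta chain genes added up, or H2-DMb2 left out), but the comparison of the subsets did not keep its value. As geometric means of all chains, control cDC1 and control cDC2 stood at -0.43 and -0.46 on the log2 scale, a difference of -0.03. With sums of the genes in place of geometric means the difference was 0.65, with H2-DMb1 and H2-DMb2 added up as 1 chain it was 0.50, and without H2-DMb2 it was 1.04, each time with more H2-O for its H2-DM in cDC2. In the transgene line's cDC1 the same versions gave -0.28, -0.36 and -0.34 in place of -0.54.

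The genes whose levels ran most like those of the H2-O chains were picked by the smallest root mean square (RMS) difference of centred log2 CPM over the 24 libraries, among 9315 genes. For H2-Oa these were Dennd1c (RMS 0.12, Pearson r 0.969), Eml3 (0.12, r 0.974) and Prdx6 (0.13, r 0.969). For H2-Ob they were Prpf18 (0.17, r 0.917), Cyb561a3 (0.17, r 0.95) and Plekhm3 (0.19, r 0.879). For Ciita they were Srebf1 (0.08, r 0.828), Supt5 (0.08, r 0.796) and Lsp1 (0.10, r 0.728). These are descriptions over libraries that share subset and genotype. H2-Oa and H2-Ob were not among each other's closest genes.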

How the data were processed

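Splenic cDC1 and cDC2 were measured by RNA sequencing in 24 libraries. Per the labels' protocols, amplification used SMART-Seq v4, which does not mark strand, and reads were single-end. Per the submitters' processing notes, FastQC 0.11.4, Trimmomatic 0.35, TopHat2 2.1.0, SAMtools 0.1.18 and mm10 were used. The deposited files hold raw counts per gene symbol made by the authors. Neither counting program nor annotation is given in the sources used here. The 5 lines naming no gene were left out (no feature 10.43 to 15.68%, ambiguous 0.9702 to 1.086%).

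The analysis ran in R 4.3.3 and used edgeR 4.0.16: filterByExpr by group (counts of at least 10, totals of at least 15; 13166 genes kept), TMM factors (0.9245 to 1.074) and a quasi-likelihood fit of 8 group means to all 24 libraries. P-values were adjusted by Benjamini-Hochberg over all genes, with a threshold of 0.05. Comparisons were Cre effects within each line of a subset, cDC2 against cDC1 controls, differences of Cre effects and the 2 lines' controls. Per-length values used the union of GENCODE vM21 exons. All 10 members are named, with up to 6 passing genes of the other pathway list having the smallest p. The members and lists were chosen with earlier results of these data known. Alternatives were DESeq2 1.42.0, its size factors, other low-count filters, the compared libraries alone, a replicate block and leaving out each library. The fit was tested on simulated counts.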

Additional observations from a re-analysis of the deposited data

Results flagged for a closer look

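Ciita in replicate 4 of the Cre-positive cDC2 of the transgene line was 569.3 CPM, while the other 3 libraries of that group were 482.3 to 495.3 CPM. The gap was wide for a group of 4 by Dixon's criterion at 95%. It was the only one of 40 groups of 4 libraries over the 10 genes to stand out in this way, and chance does this in about 1 of 20 groups.

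The Cre effect on H2-Ob in the deletion line differed between the subsets by 0.5119 on the log2 scale, being higher in cDC2 (edgeR adjusted p = 0.0402).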

How the results depend on the processing

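No difference of a member that passed the test changed direction under the alternatives run. In cDC1 of the transgene line the number of members that passed was 3. Under the alternatives that kept every compared library it was 1 to 4, where 4.19 to 9.78% of all genes passed. The lowest number, 1, came with the compared libraries alone (4.19%). Leaving out 1 library at a time gave 1 to 4 members there (1 without control replicate 2, where 3.7% of all genes passed), 0 to 1 in cDC2 of the transgene line (0 without control replicate 2, 0.137% of all genes), 0 to 1 in cDC2 of the deletion line (0 without control replicate 1, 1.08%), and 0 to 1 for the difference of Cre effects in each line (1 in the transgene line without Cre-positive cDC1 replicate 3, 2.18%). DESeq2 called 2 members, and 7.52% of all genes, in cDC2 of the deletion line. The difference of Cre effects in the deletion line had 0 members without a low-count filter and 0 with the compared libraries alone (0.761% and 0.744% of all genes). For H2-O against H2-DM, sums over genes gave -0.279 for the transgene in cDC1, 0.649 between control subsets, and levels of -1.22 in control cDC1 and -0.572 in control cDC2. Without H2-DMb2 these were -0.335, 1.04, -1.41 and -0.368, and with H2-DMb1 and H2-DMb2 added up -0.364, 0.50, -1.49 and -0.987. With the longest transcript as length the control levels were -0.31 and -0.341. Leaving out 1 library moved the difference in cDC2 of the transgene line between -0.46 and -0.308.

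Replicate numbers were not taken to pair cDC1 with cDC2 libraries: same-numbered libraries deviated together with r of 0.0764 to 0.17 in the deletion line and 0.101 to 0.111 in the transgene line with Cre, but -0.00779 and 0.0352 in controls. Control groups hold 2 libraries, whose deviations mirror each other, so both numbers of a line give the same r. Each of the 8 Cre-positive pairs correlated best with its own number. Whether same-numbered libraries came from the same mouse is not given. With a replicate block H2-DMa in cDC1 of the transgene line had an adjusted p of 0.055, and no other member's call changed. The block could not be fitted for the comparison of the 2 lines' controls. With 2 controls per group, differences of this size rest on few libraries.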
